A study of Mus musculus with 10 samples.

Results

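Expression of cell cycle genes and of the genes that restrain the cycle was described in the left ventricle (LV) of young mice with and without pressure overload. The gene set was chosen by symbol with no filter on expression level, but with earlier results of these data known. It held 45 of the 55401 genes in the deposited tables. Of these, 38 act in proliferation (9 in G1, 9 in S phase and DNA replication, 20 in G2 and mitosis) and 7 act as brakes (5 cyclin-dependent kinase (CDK) inhibitors, Rb1 and Meis1). All 45 genes were above 0 in at least 1 library. LV tissue came from wild-type C57BL/6 mice at 4 weeks of age, with 5 mice that had neonatal ascending aorta constriction (nAAC) surgery and 5 that had sham surgery, and 1 RNA sequencing library per mouse. In nAAC a ligature narrows the aorta shortly after birth, so the ventricle grows against raised pressure. Both groups stayed with their mothers after the operation, and no drug or engineered allele enters either group.

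Cells enter the cycle when D-type cyclins bind CDK4 or CDK6 and phosphorylate the retinoblastoma protein, which frees E2F factors to switch on replication genes. Cyclin A and cyclin B then drive S phase and mitosis, while the Cip/Kip and INK4 proteins block the kinases. Mouse cardiomyocytes largely leave the cycle in the days after birth and later enlarge without dividing, while fibroblasts and other cells of the ventricle can still proliferate. In whole tissue, fewer cells of a type and less RNA per cell cannot be told apart, and the same is true of more.

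Values are FPKM, that is fragments per kilobase of transcript, scaled to library size. Differences are log2 fold changes (log2 FC, nAAC minus sham) on log2(FPKM + 0.1), tested with limma over 29309 genes. A gene was called changed at a Benjamini-Hochberg adjusted p below 0.05. The added 0.1 makes log2 FC understate the change of genes with low FPKM. Over all 29309 genes the median log2 FC was 0.15, and 84.5% of the called genes were higher in nAAC. After median-ratio scaling, which sets the typical gene equal between libraries, these became 0.03 and 56.5%. Sham replicate 4 stood apart from the other sham libraries over all genes, with an SD of its deviations from the group mean of 0.511 log2 units against 0.283 to 0.372 in the other 4. Mitochondrial transcripts took 32.8 to 39.9% of TPM in nAAC and 33.7 to 49.8% in sham. Xist, expressed from the inactive X chromosome of females, was at 14.8 to 17.9 FPKM in 4 nAAC mice and 0.0232 in nAAC replicate 2, and at 10.6 in sham replicate 5, 3.70 in sham replicate 4 and 0 to 0.0168 in the other 3 sham mice. Xist was thus above 1 FPKM in 4 of 5 nAAC mice and 2 of 5 sham mice, and a fit with Xist as a covariate is given for each of the 45 genes whose call it ended. Sham replicate 4 thus had an intermediate Xist level and also stood apart over all genes, and the reason was not tested.

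Of the 45 genes, 7 rose and 3 fell in nAAC, and 35 did not pass the test. Across all genes tested, 13.8% were called, 11.6% higher and 2.14% lower. The genes that rose were the 3 D-type cyclins (Ccnd1, Ccnd2 and Ccnd3), the replication helicase subunits Mcm2 and Mcm6, and the CDK inhibitors Cdkn1a and Cdkn2b. The genes that fell were Cdk2, Ccnb2 and Cenpf. Of the 45 genes, 7 had all nAAC values above sham and 3 had all below, where the shares over all genes were 10.3% and 1.97%. These were the same 10 genes, so their separation is not support apart from the calls. With 5 against 5 mice the two-sided exact permutation test of a single gene cannot go below 0.0079. Each of the 10 genes reached that value, as any gene whose groups do not overlap must. The general shift lies on the side of higher values, so the median-ratio result is given below for each of the 45 genes whose call it ended or added. In that fit 6.1% of all genes were called higher and 4.7% lower; the shares were 17.2% and 1.5% with TPM, 6.13% and 1.41% with Xist as a covariate, 12.8% and 2.35% without sham replicate 4, and 12.9% and 1.97% without sham replicate 5.

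**Figure D1:**
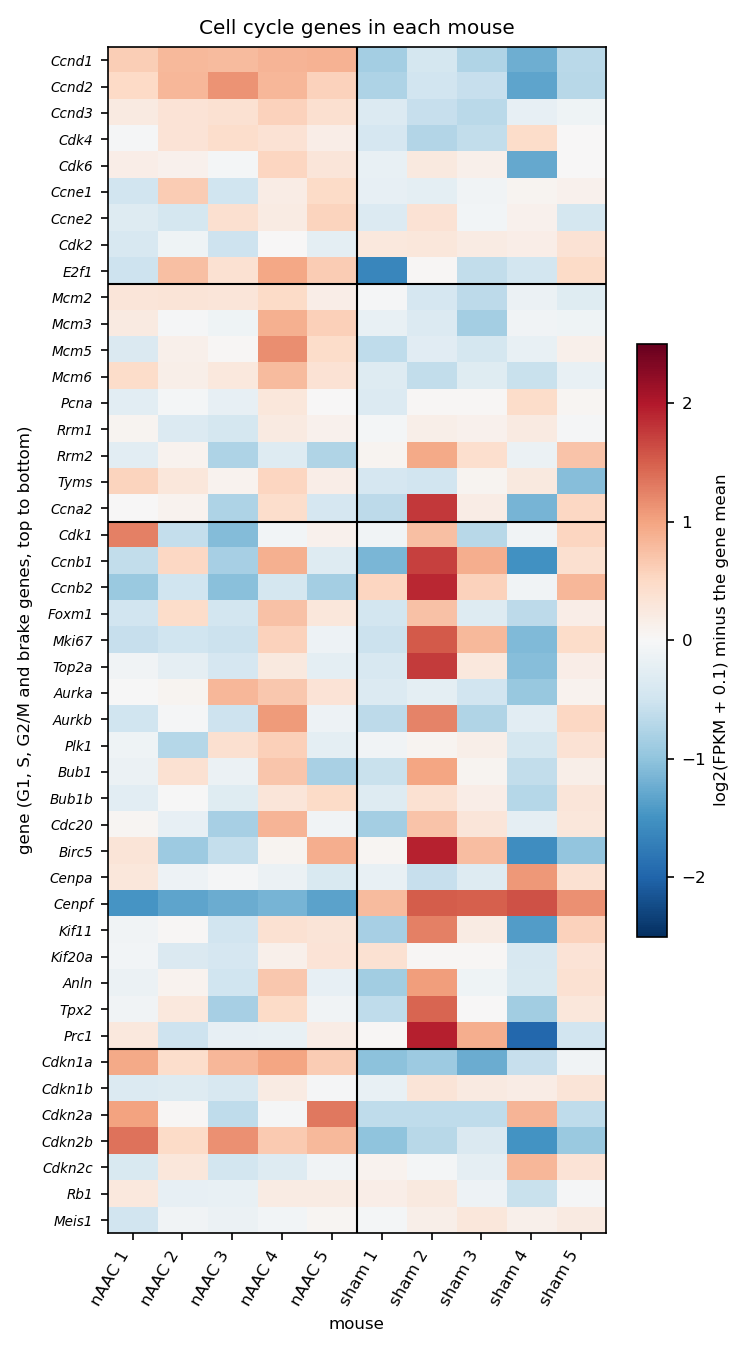
Heat map of the 45 genes (rows, in the order G1, S, G2 and mitosis, brakes, divided by black lines) in the 10 mice (columns). Colour is log2(FPKM + 0.1) minus the mean of the gene over all mice, from blue (low) to red (high); the D-type cyclins, Cdkn1a and Cdkn2b are red and Cenpf is blue in all 5 nAAC columns, and most mitosis genes are red in sham replicate 2 and blue in sham replicate 4.

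The D-type cyclins showed the largest absolute FPKM differences among the proliferation genes. Ccnd1 (ENSMUSG00000070348, chr7:144929931-144939925, minus strand, mm10), which encodes cyclin D1, was at 16.6, 19.0, 18.7, 19.4 and 19.9 FPKM in the 5 nAAC mice and at 5.93, 7.92, 6.34, 4.56 and 6.69 in the 5 sham mice. The lowest nAAC value was well above the highest sham value, and the nAAC values were tightly spaced. The means were 18.7 ± 1.28 and 6.29 ± 1.22 (SD, n = 5 each), a 2.98-fold difference with a log2 FC of 1.58 (SE 0.13, limma adjusted p = 5.37e-05). Ccnd2 (chr6:127125162-127152193, minus strand), encoding cyclin D2, was at 26.8, 33.7, 41.5, 33.8 and 28.1 FPKM in nAAC and at 11.1, 13.5, 12.7, 7.56 and 11.6 in sham. The groups were far apart, and the lowest sham value was that of replicate 4. The log2 FC was 1.54 (SE 0.17, limma adjusted p = 0.000268), a 2.90-fold difference of the means. Ccnd3 (chr17:47505051-47599691, plus strand), encoding cyclin D3, was at 22.9, 24.7, 25.4, 29.3 and 25.8 FPKM in nAAC and at 15.3, 13.1, 12.1, 16.9 and 17.997 in sham. Its groups were also apart, with a smaller 1.70-fold difference of the means and a log2 FC of 0.77 (SE 0.12, limma adjusted p = 0.00207). All 3 cyclins were also called after median-ratio scaling, with TPM, with Xist as a covariate and with any single mouse left out.

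The kinases that the D-type cyclins activate did not pass the test. Cdk4 was at 15.1, 19.7, 20.9, 20.03 and 17.5 FPKM in nAAC and at 11.5, 9.32, 10.01, 21.4 and 15.6 in sham, where replicate 4 held the highest value of all 10 mice. Its log2 FC was 0.52 (95% interval 0.04 to 0.996, limma adjusted p = 0.159). Without sham replicate 4 it was 0.70 (limma adjusted p = 0.0215), so the call for Cdk4 depended on that mouse. Cdk4 overlaps the opposite-strand gene Tspan31, whose FPKM was of similar size, and whether reads were counted by strand is not given in the sources used here. Tspan31 was itself called higher (log2 FC 0.33, limma adjusted p = 0.0489), and its part in the Cdk4 values was not tested. Cdk6, the other partner kinase, was at 1.33 to 2.04 FPKM in nAAC and 0.506 to 1.65 in sham (log2 FC 0.43, 95% interval -0.19 to 1.05).

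Later in G1, cyclin E binds CDK2 to start replication. Cdk2 (chr10:128697939-128705031, minus strand) was at 3.25, 4.00, 2.98, 4.31 and 3.60 FPKM in nAAC and at 5.20, 5.28, 4.97, 4.82 and 5.52 in sham. All 5 nAAC mice lay below the sham mice, whose values were closely spaced. The means of 3.63 ± 0.543 and 5.16 ± 0.272 FPKM (SD, n = 5 each) gave a log2 FC of -0.51 (SE 0.11, limma adjusted p = 0.0133). The call was lost with TPM (limma adjusted p = 0.0957) and with Xist as a covariate (limma adjusted p = 0.0704). Among the mice with Xist above 1 FPKM the values were 2.98 to 4.31 in nAAC and 4.82 to 5.52 in sham, and among the others 4.00 in the single nAAC mouse and 4.97 to 5.28 in sham. The lower end of the first sham range, 4.82, came from sham replicate 4; sham replicate 5, the other sham mouse in it, was at 5.52. The cyclin E genes were low, with means of 0.472 and 0.396 FPKM for Ccne1 and 0.859 and 0.748 for Ccne2 in nAAC and sham, and their log2 FC changed sign after median-ratio scaling. Transcription factor E2f1 was at 0.192 to 0.712 FPKM in nAAC and 0.0347 to 0.477 in sham, a log2 FC of 0.88 whose 95% interval of -0.04 to 1.81 reached below 0 (limma adjusted p = 0.216).

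Among the 9 S phase genes, 2 helicase subunits rose and the nucleotide supply genes were not called. The MCM proteins form the ring that unwinds DNA at replication origins. Mcm6 (chr1:128331590-128359664, minus strand) was at 3.50, 2.81, 3.05, 4.43 and 3.30 FPKM in nAAC and at 1.996, 1.62, 2.04, 1.69 and 2.21 in sham. The groups were apart, at means of 3.42 ± 0.624 and 1.91 ± 0.250 (SD, n = 5 each), with a log2 FC of 0.80 (SE 0.15, limma adjusted p = 0.00492). Mcm2 (chr6:88883474-88898780, minus strand) was at 1.41, 1.43, 1.41, 1.61 and 1.29 FPKM in nAAC and at 1.11, 0.816, 0.684, 1.004 and 0.902 in sham. Its smaller log2 FC of 0.62 (SE 0.16, limma adjusted p = 0.0258) was no longer called after median-ratio scaling (0.36, limma adjusted p = 0.190) or with Xist as a covariate (limma adjusted p = 0.108). Mcm3 and Mcm5 had similar log2 FC values with wider intervals and were not called, at 0.63 (95% interval 0.11 to 1.14) and 0.57 (95% interval -0.09 to 1.22). The remaining subunits of the ring, Mcm4 and Mcm7, were not called either, at 0.20 (SE 0.14) and -0.08 (SE 0.13). In Mcm5 the nAAC values ran from 0.458 to 1.51 FPKM, the highest in replicate 4.

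The remaining S phase genes did not pass the test. Pcna, the sliding clamp of DNA polymerase, was the most abundant of the 9 at 15.2 ± 2.35 FPKM in nAAC and 16.3 ± 3.26 in sham (SD, n = 5 each), with a log2 FC of -0.09 (95% interval -0.42 to 0.24). Rrm1 and Rrm2 encode the subunits of ribonucleotide reductase, which makes deoxyribonucleotides. Rrm1 had a log2 FC of -0.16 (95% interval -0.49 to 0.17). Rrm2 was at 0.693, 0.915, 0.459, 0.657 and 0.463 FPKM in nAAC and at 0.890, 1.73, 1.17, 0.762 and 1.46 in sham, with a log2 FC of -0.80 (95% interval -1.39 to -0.21, limma adjusted p = 0.0747). It was called lower after median-ratio scaling (-1.05, limma adjusted p = 0.0305) and without sham replicate 4 (-0.94, limma adjusted p = 0.0391). Tyms, which makes thymidylate, had a log2 FC of 0.66 (95% interval 0.07 to 1.24, limma adjusted p = 0.142). Ccna2, encoding cyclin A2, was at 0.189 to 0.569 FPKM in nAAC and 0.121 to 1.58 in sham, the highest in sham replicate 2, and its log2 FC of -0.27 turned positive without that mouse.

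Of the 20 G2 and mitosis genes, none rose and 2 fell, and 19 had a mean below 1 FPKM. Cenpf (ENSMUSG00000026605, chr1:189640606-189688086, minus strand), a large protein of the kinetochore and nuclear envelope, was at 0.0914, 0.113, 0.124, 0.136 and 0.110 FPKM in nAAC and at 0.816, 1.41, 1.39, 1.49 and 1.07 in sham. The nAAC values were uniformly low and did not approach the sham range. The means of 0.115 ± 0.0167 and 1.24 ± 0.285 FPKM (SD, n = 5 each) differed 10.7-fold, with a log2 FC of -2.61 (SE 0.21, limma adjusted p = 4.31e-05). Cenpf had the most negative log2 FC of the 45 genes, between -2.74 and -2.54 with any single mouse left out. Ccnb2 (chr9:70407692-70421547, minus strand), encoding cyclin B2, was at 0.158, 0.246, 0.137, 0.259 and 0.170 FPKM in nAAC and at 0.609, 1.71, 0.632, 0.362 and 0.769 in sham. The groups did not overlap, although the sham mice ranged widely. The log2 FC was -1.50 (SE 0.34, limma adjusted p = 0.0156), and the means differed 4.21-fold. With Xist as a covariate the log2 FC of Ccnb2 was -1.28 (limma adjusted p = 0.0915). Among the mice with Xist above 1 FPKM its values were 0.137 to 0.259 in nAAC and 0.362 to 0.769 in sham, and among the others 0.246 in the single nAAC mouse and 0.609 to 1.71 in sham. The value of 0.362 was that of sham replicate 4, so apart from it sham was represented by replicate 5 alone in the first comparison. A pseudogene, Ccnb2-ps, was listed at 0.543 ± 0.208 FPKM in nAAC and 0.494 ± 0.0886 in sham (SD, n = 5 each), so reads that the sequence shares with Ccnb2 may be split between them. Cyclin B1, from Ccnb1, had a log2 FC of -0.14 with a 95% interval of -1.54 to 1.26.

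Promoters of cell cycle genes often carry a cell cycle homology region (CHR, letters TTTGAA), which binds the DREAM and MuvB complexes, next to CCAAT boxes (letters CCAAT), while many S phase genes carry E2F sites. The first 4 sequences below are the stretches around the start of Ccnb2 and Cenpf, which fell, and of Cdk1 and Prc1, which did not pass the test, and the last is that of Mcm6, which rose. Each runs from 100 bases before to 10 bases from the start of transcription on the gene strand, from RefSeq on GRCm38.p6, with CHR, CCAAT and E2F matches on either strand in capitals.
Ccnb2: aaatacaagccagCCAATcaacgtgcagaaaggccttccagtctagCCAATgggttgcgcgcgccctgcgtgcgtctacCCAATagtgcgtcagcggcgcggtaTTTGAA
Cenpf: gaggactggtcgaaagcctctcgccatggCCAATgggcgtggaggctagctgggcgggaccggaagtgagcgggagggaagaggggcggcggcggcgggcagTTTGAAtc
Cdk1: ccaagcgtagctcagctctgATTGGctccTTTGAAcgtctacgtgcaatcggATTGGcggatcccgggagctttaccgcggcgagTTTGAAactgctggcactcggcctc
Prc1: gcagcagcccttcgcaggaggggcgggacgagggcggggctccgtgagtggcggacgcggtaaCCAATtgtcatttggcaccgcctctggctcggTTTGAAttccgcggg
Mcm6: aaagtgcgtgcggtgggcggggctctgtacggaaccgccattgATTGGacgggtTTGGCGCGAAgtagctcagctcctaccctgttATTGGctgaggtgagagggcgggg
These stretches are chr9:70421545-70421654 (minus strand), chr1:189688077-189688186 (minus), chr10:69352903-69353012 (minus), chr7:80294351-80294460 (plus) and chr1:128359696-128359805 (minus), in that order. In the 300-base windows from 250 before to 50 after the start, 36 of the 45 genes had a RefSeq entry. TTTGAA was present in 13 of 16 G2 and mitosis windows (81.25%) against 17.0% of 20942 windows of all genes. E2F sites were searched as TTCCCGC and TTGGCGC, and also as TTGCCGC and TTCGCGC, on either strand, and 2 of them can overlap, as in Mcm6. They were present in 5 of 8 S phase windows (62.5%) against 11.3% of all, and CCAAT boxes in 14 of 16 mitosis windows (87.5%) and 7 of 8 S phase windows against 38.5% of all. The Ccnb2, Cenpf, Cdk1 and Prc1 windows all held TTTGAA and CCAAT, although only Ccnb2 and Cenpf were called.

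**Figure D2:**
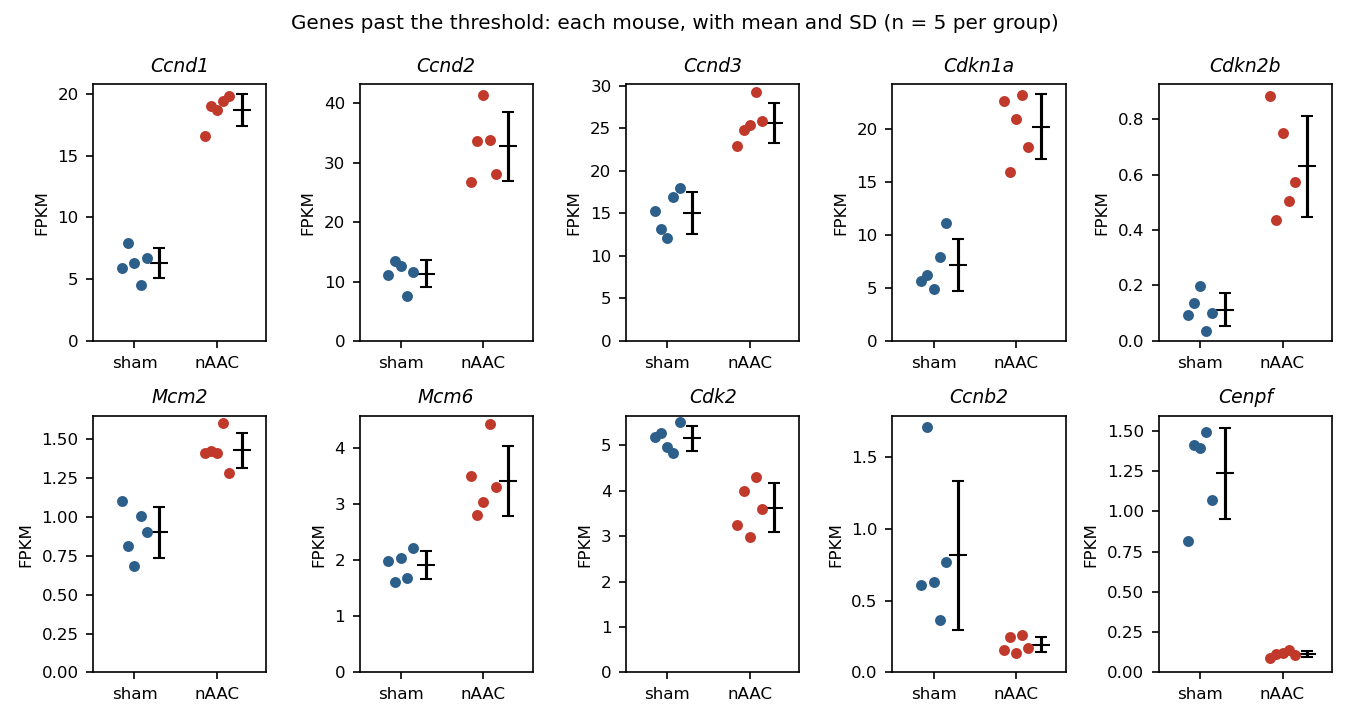
FPKM (y axis, linear from 0) of each of the 10 called genes in sham (blue) and nAAC (red), 1 point per mouse, with the mean and SD of each group beside the points in black (n = 5 per group). The 5 nAAC points do not overlap the 5 sham points in any panel, and the Cenpf nAAC points lie between 0.0914 and 0.136 FPKM.

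The other 18 G2 and mitosis genes were not called, and most were measured with wide intervals. Mki67, the source of the Ki67 proliferation marker, was at 0.165, 0.182, 0.173, 0.495 and 0.263 FPKM in nAAC and at 0.175, 1.05, 0.595, 0.0839 and 0.447 in sham. The sham mice spanned the whole nAAC range, and the log2 FC of -0.46 had a 95% interval of -1.55 to 0.62. Top2a, the topoisomerase that untangles replicated chromosomes, had a log2 FC of -0.28 (95% interval -1.29 to 0.73), and Cdk1, the mitotic kinase, of -0.17 (95% interval -1.15 to 0.82). Foxm1, a transcription factor of G2 genes, was at 0.253 FPKM in nAAC and 0.206 in sham. These intervals leave room for changes in either direction, so a difference was not detectable rather than absent.

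Aurka, a kinase of the spindle poles, had the highest log2 FC of the 20 at 0.77 (95% interval 0.19 to 1.34, limma adjusted p = 0.0824). It was at 0.326, 0.350, 0.655, 0.581 and 0.440 FPKM in nAAC and at 0.237, 0.262, 0.206, 0.122 and 0.354 in sham, so only sham replicate 5 reached into the nAAC range. Aurka was called higher without sham replicate 5 (0.88, limma adjusted p = 0.0480). Of the other mitotic kinases and checkpoint genes, log2 FC was -0.04 for Aurkb, -0.03 for Plk1, -0.01 for Bub1 and 0.07 for Bub1b. For Cdc20, which activates the anaphase-promoting complex, it was -0.09, and for Birc5, which encodes survivin, -0.08. The spindle and cytokinesis genes Kif11, Kif20a, Anln, Tpx2 and Prc1 lay between -0.18 (Prc1) and 0.07 (Kif11). Kif11, Kif20a, Prc1 and Cdc20 overlap opposite-strand genes at 0.613 to 14.6 times their own FPKM, as do Ccna2 and Ccne2 at 17.4 and 4.79 times, so their low values may hold reads of these neighbours. Of the 20, only Cenpa, the centromeric histone, exceeded 1 FPKM on average, at 13.0 ± 2.25 in nAAC and 15.7 ± 8.12 in sham (SD, n = 5 each), with sham replicate 4 at 29.0.

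The spread of the mitosis genes was wider among sham mice than among nAAC mice. The median SD of log2(FPKM + 0.1) over the 20 genes was 0.69 in sham and 0.47 in nAAC, and it was larger in sham for 16 of 20. Sham replicate 2 was the highest sham mouse for 15 of the 20 genes and sham replicate 4 the lowest for 14. Among nAAC mice, replicate 4 was highest for 13 genes and replicate 3 lowest for 11. Cenpf and Cenpa departed from this order, as sham replicate 4 had their highest values. These counts are a description of genes that share a library and are not independent.

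**Figure D3:**
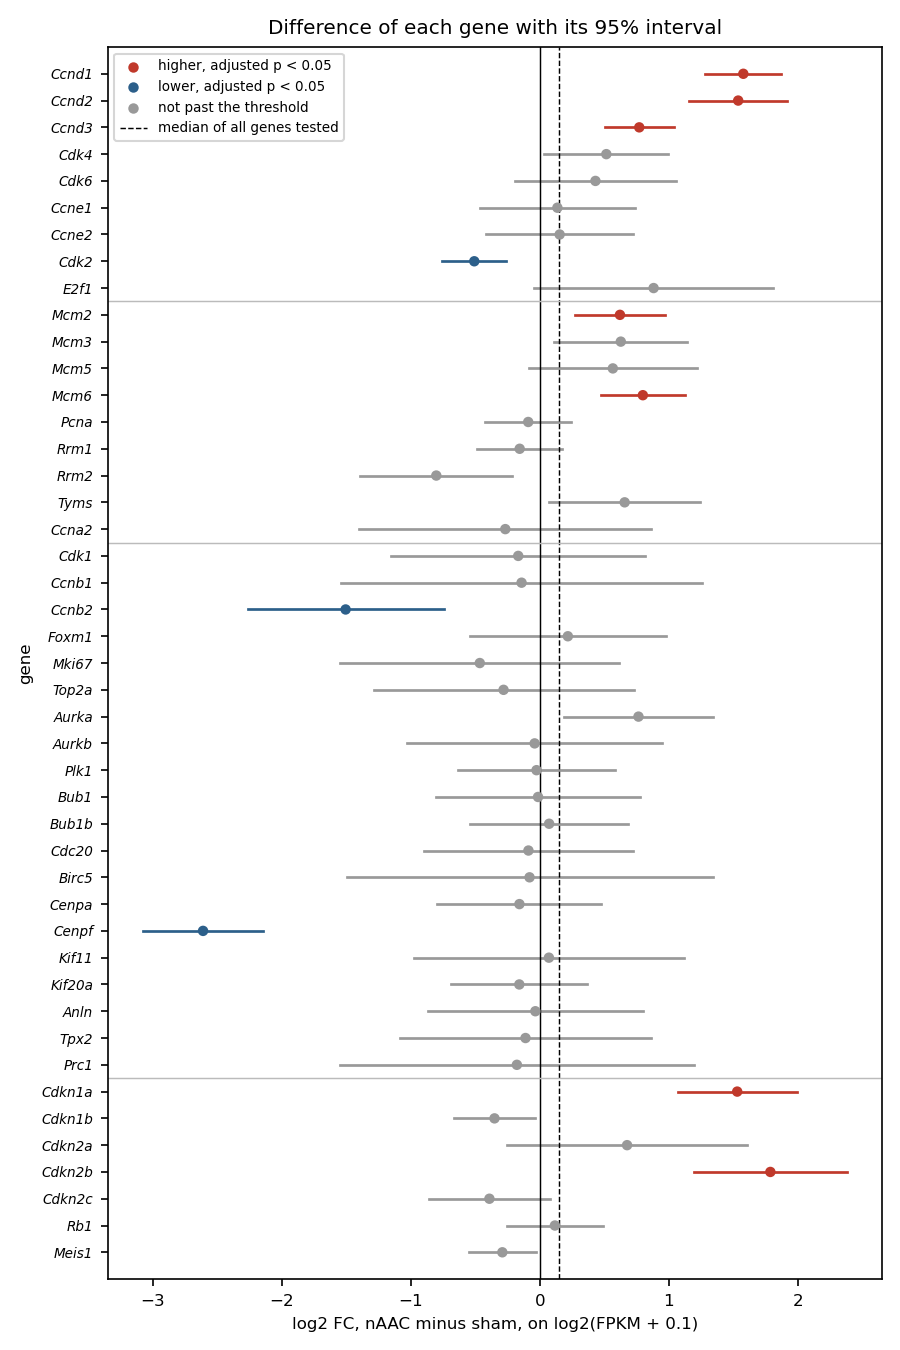
Log2 FC (nAAC minus sham, on log2(FPKM + 0.1)) of each of the 45 genes with its 95% limma interval, by role from top to bottom (G1, S, G2 and mitosis, brakes). Red and blue mark genes called higher and lower, grey those not called, and the dashed line the median of all genes tested (0.15); the intervals of most mitosis genes span 0 and are wider than those of the D-type cyclins.

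Of the 7 brakes, 2 rose, none fell and 5 did not pass the test. Cdkn1a (ENSMUSG00000023067, chr17:29090976-29100727, plus strand) encodes p21, a CDK inhibitor induced by p53 and other stress signals. It was at 22.6, 15.9, 20.9, 23.2 and 18.3 FPKM in nAAC and at 5.67, 6.21, 4.91, 7.87 and 11.1 in sham. The groups were apart, at means of 20.2 ± 3.05 and 7.15 ± 2.45 (SD, n = 5 each), a 2.82-fold difference with a log2 FC of 1.53 (SE 0.21, limma adjusted p = 0.000964). Cdkn2b (chr4:89306299-89311039, minus strand) encodes the INK4 protein p15, an inhibitor of CDK4 and CDK6 that transforming growth factor beta can induce. It was at 0.883, 0.437, 0.749, 0.506 and 0.573 FPKM in nAAC and at 0.0919, 0.137, 0.199, 0.0361 and 0.102 in sham. All values were below 1 FPKM, yet the groups were clearly apart, with a 5.57-fold difference of the means and a log2 FC of 1.79 (SE 0.27, limma adjusted p = 0.00165), the highest of the 45 genes. Both genes were also called after median-ratio scaling, with TPM, with Xist as a covariate and with any single mouse left out.

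Of the 5 other brakes, Cdkn2a and Rb1 had a positive log2 FC and Cdkn1b, Cdkn2c and Meis1 a negative one. Cdkn1b, which encodes p27, was at 9.48, 9.56, 9.12, 13.8 and 11.8 FPKM in nAAC and at 10.5, 15.02, 14.1, 13.7 and 15.1 in sham, with a log2 FC of -0.35 (95% interval -0.67 to -0.04, limma adjusted p = 0.145). Meis1, a transcription factor linked to cell cycle arrest of postnatal cardiomyocytes, was at 2.51, 3.29, 3.18, 3.34 and 3.65 FPKM in nAAC and at 3.39, 3.90, 4.27, 3.85 and 4.14 in sham, with a log2 FC of -0.29 (95% interval -0.55 to -0.03, limma adjusted p = 0.144). After median-ratio scaling both were called lower, at -0.63 for Cdkn1b (limma adjusted p = 0.00541) and -0.56 for Meis1 (limma adjusted p = 0.00754), in the fit that called 4.7% of all genes lower. Whether these genes fell therefore depends on the scaling of the libraries. Cdkn2c, encoding the INK4 protein p18, had a log2 FC of -0.39 (95% interval -0.86 to 0.08) and Rb1 of 0.12 (95% interval -0.26 to 0.49). The opposite-strand gene Rcbtb2 overlaps Rb1 at 1.13 times its FPKM, so the Rb1 values may hold reads of Rcbtb2. Cdkn2a was listed at 0.213, 0.058, 0, 0.0527 and 0.286 FPKM in nAAC and at 0 in every sham mouse but replicate 4, which was at 0.178. It shares its locus with Cdkn2b on chromosome 4 but was too low for a change to be detected (limma adjusted p = 0.358).

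The mean of log2(FPKM + 0.1) over each group of genes was taken in every mouse as a description, without a test. For the 38 proliferation genes it was -0.06, 0.01, -0.20, 0.42 and 0.09 in nAAC and -0.33, 0.52, 0.00306, -0.42 and 0.14 in sham. The groups overlapped throughout, and the difference of means of 0.07 was small against the SDs of 0.23 and 0.38. By phase the difference was 0.61 for the 9 G1 genes, 0.22 for the 9 S phase genes and -0.25 for the 20 G2 and mitosis genes. The mice of the 2 groups overlapped for S phase and for G2 and mitosis. Single genes weighed on these means. Ccnd1 and Ccnd2 were at 1.58 and 1.54 against a median log2 FC of 0.52 over the G1 genes. Cenpf and Ccnb2 were at -2.61 and -1.50 against a median of -0.10 over the G2 and mitosis genes. For the 7 brakes the mean level was 1.72, 1.47, 1.41, 1.62 and 1.80 in nAAC and 1.01, 1.16, 1.09, 1.29 and 1.27 in sham, a difference of 0.44 that came mostly from Cdkn1a and Cdkn2b. It was 0.21 after median-ratio scaling.

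**Figure D4:**
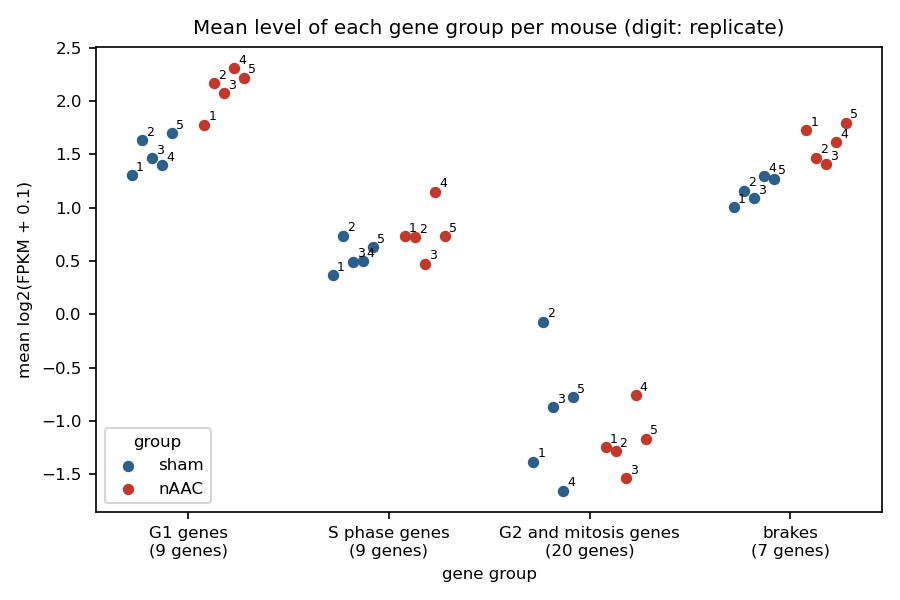
Mean log2(FPKM + 0.1) (y axis) of the G1, S phase, G2 and mitosis, and brake genes in each mouse, sham in blue and nAAC in red, with the replicate number beside each point. Sham replicates 2 and 4 are the highest and lowest sham points for G2 and mitosis, at -0.07 and -1.65, while nAAC lies above sham for the G1 genes and the brakes.

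Wider lists of the same pathways placed these genes in context. None of 29 other DNA replication genes was called (median log2 FC 0.03), with 3 called higher with TPM and 1 lower, Rpa2 (-0.66), after median-ratio scaling. Of 56 other mitosis and cytokinesis genes (median -0.02) only Hjurp, the chaperone that loads the centromeric histone, was called higher (0.53, limma adjusted p = 0.0273). That call was lost after median-ratio scaling (0.25, limma adjusted p = 0.306), with Xist as a covariate (limma adjusted p = 0.0913) and in 6 of the 10 fits that left out 1 mouse. After median-ratio scaling only Pttg1, which encodes securin, was called in that list, and it was lower (-0.66).

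Of 15 other E2F and pocket protein genes, 5 were called higher (median 0.32), where the share over all genes was 11.6%. Among the 5 were E2f3 (0.82), Lin37 (0.60) and E2f4 (0.55). None of the 15 was called higher after median-ratio scaling, and 2 were called lower, Tfdp2 (-0.63) and Lin52 (-0.48). That fit called 4.7% of all genes lower. With Xist as a covariate 1 of the 15 was called higher. With 1 mouse left out 2 to 5 were, fewest without nAAC replicate 2, 4 or 5 or sham replicate 3. E2f3 kept its call with any mouse left out and with Xist as a covariate, and Lin37 and E2f4 lost theirs with Xist as a covariate (limma adjusted p = 0.210 and 0.166). Over the 19 alternative settings, which include leaving out each mouse, E2f3 was called in 16, Lin37 in 5 and E2f4 in 6. Of 3 other CDK inhibitors, Cdkn1c, the imprinted gene of p57 in the Cip/Kip family of Cdkn1a, was at 14.1 ± 3.65 FPKM in sham and 6.58 ± 2.54 in nAAC (SD, n = 5 each) and was called lower (log2 FC -1.15, SE 0.29, limma adjusted p = 0.0254). The call was lost without nAAC replicate 1 or 2 or sham replicate 1, 4 or 5, with a highest limma adjusted p of 0.0655, while log2 FC stayed between -1.32 and -0.90 with any mouse left out.

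Of 16 p53 target genes other than Cdkn1a, 5 were called higher and 2 lower, where the shares over all genes were 11.6% and 2.14%. Their median log2 FC was 0.54, against the median of 0.15 over all genes. Phlda3, an inhibitor of AKT signalling, was at 22.3 ± 3.78 FPKM in nAAC and 5.96 ± 2.20 in sham (SD, n = 5 each), with a log2 FC of 1.94, and Zmat3, an RNA-binding protein, had a log2 FC of 1.16. Both were also called after median-ratio scaling, with TPM, with Xist as a covariate and with any mouse left out. Bax, which promotes apoptosis, had a log2 FC of 0.98, and its call was lost after median-ratio scaling (limma adjusted p = 0.0814) and with Xist as a covariate (limma adjusted p = 0.154). It was called in 7 of the 19 alternative settings. Sesn1 (-0.52) and Fas (-0.46) were called lower, neither of them with TPM (limma adjusted p = 0.149 and 0.191), and Fas also not with Xist as a covariate (limma adjusted p = 0.0620). Over the 19 alternative settings, Sesn1 was called in 14 and Fas in 7. Mdm2 and Ccng1, which p53 also induces, were not called (0.10 and -0.08). The list held 3 higher and 2 lower calls after median-ratio scaling, where the shares over all genes were 6.1% and 4.7%. With TPM it held 10 higher and 0 lower, where the shares were 17.2% and 1.5%. With Xist as a covariate it held 3 higher and 1 lower, where the shares were 6.13% and 1.41%. With 1 mouse left out it held 4 to 7 higher calls, the most without sham replicate 5. The lower calls then numbered 0 to 2, with 0 without nAAC replicate 1, 2 or 3.

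**Figure D5:**
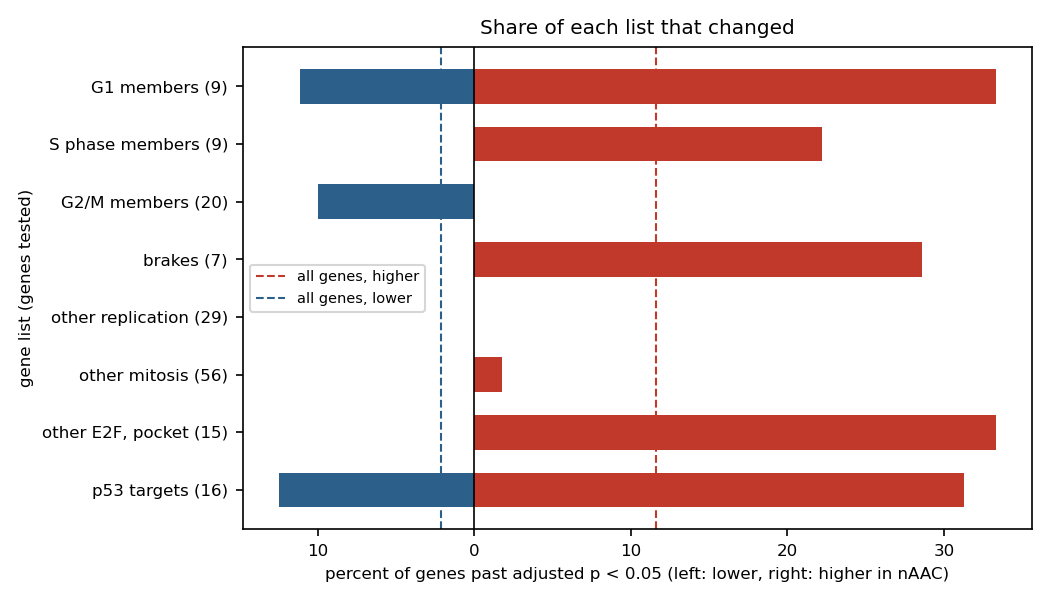
Percent of the tested genes of each list (number in brackets) called higher (red, right) or lower (blue, left) in nAAC, with dashed lines at the shares over all genes tested (11.6% higher and 2.14% lower). All bars are from the fit without scaling. The bars of the other replication and other mitosis lists stay short of the dashed line for higher genes. The bar of the other E2F and pocket protein genes passes it at 33.3%. After median-ratio scaling, which is not drawn, none of that list was called higher and 2 were called lower.

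Cell type markers differed in how many were called. Over all genes tested, 11.6% were called higher and 2.14% lower. Of 10 fibroblast markers 5 rose and none fell, and their summed FPKM ranged from 636 to 1133 in nAAC and from 406 to 474 in sham. Of 11 macrophage and leukocyte markers 3 rose (sums 145 to 293 and 97.6 to 206), of 7 mural markers 4 rose (200 to 309 and 160 to 293), and of 10 endothelial markers 1 rose (301 to 467 and 263 to 376). The endothelial share was near that over all genes. Of these lists, only the fibroblast sums did not overlap between the groups. Of 12 cardiomyocyte markers 1 rose and 2 fell, with sums of 17836 to 27624 and 20183 to 35401. These sums show heart muscle in every library, and do not test which chamber it came from. After median-ratio scaling 5 of the fibroblast, 2 of the mural and none of the macrophage and leukocyte or endothelial markers were called higher, and 1 cardiomyocyte marker was called higher and 3 lower. In that fit 6.1% of all genes were called higher and 4.7% lower. None of 7 lymphocyte markers, whose Cd3e and Cd3d were at 0 in 6 and 5 libraries, none of 6 erythroid markers (3396 to 8802 and 2292 to 8661) and none of 3 atrial markers (2.03 to 227 and 3.05 to 44.7) was called. The part of the cell type markers in the changes of Ccnd1, Ccnd2, Cdkn1a and the other genes was not tested.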

How the data were processed

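LV tissue of 5 nAAC and 5 sham mice was sequenced, and groups were taken from the sample titles. The authors deposited 1 gene table per mouse, on mm10 per the labels, each with coverage, FPKM and TPM. The coverage the authors give, a mean read depth over each gene, entered no comparison. The deposited FPKM is normalized by the authors for gene length and library size, and the deposited TPM is rescaled to a fixed sum per library. The columns are laid out as in StringTie output; the aligner, the counting tool and the use of strand are not given in the sources used here. Read counts are not part of the files, so no count model was run, and depth enters only through the FPKM. Highly abundant transcripts lower the FPKM of all other genes in a library, which is why scaled values were compared. TPM was compared as well, but as a share of a fixed sum it does not remove this effect. The median log2 FC over all genes was 0.27 with TPM against 0.15 with FPKM.

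Rows sharing a gene ID were summed (7 to 12 extra rows per table). Tests were made in limma 3.58.1 (R 4.3.3) with an empirical Bayes trend on log2(FPKM + 0.1), over the 29309 genes above 0 in at least 1 library, with Benjamini-Hochberg adjustment over all of them. For single genes an exact permutation test (two-sided, 5 against 5 mice) was added in Python 3.11.15. The fit was tested on simulated data. The alternatives tried were scaling by median ratios or by upper quartiles, TPM, a mean FPKM of at least 0.1 or 1, a pseudocount of 1, a replicate block, Xist as a covariate, the exact permutation test and leaving out each mouse. The text names all 45 genes, up to 3 changed genes in each direction of each pathway list, Xist and markers. Of the overlapping genes it names Tspan31 and Rcbtb2. Also named are Mdm2, Ccng1, Ccnb2-ps, Mcm4, Mcm7, Rpa2, Pttg1, Tfdp2 and Lin52, chosen after their values were seen. The 45 genes and all lists were chosen with earlier results of these data known. Promoter windows came from RefSeq on GRCm38.p6, and for 25 of the 36 genes with a window the 40 bases after the start lay in a GENCODE transcript. Each library is a separate mouse by its label. Sequences of proteins were not used here.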

Additional observations from a re-analysis of the deposited data

Results flagged for a closer look

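Among 100 groups of 5 mice examined, 2 held a mouse far from the other 4 by the gap between it and its nearest neighbour over the range of the group (above Dixon's critical value), where chance gives about 5. Cdkn1b in sham replicate 1 was at 10.5 FPKM and in the other sham mice at 13.7 to 15.1. On the log2 scale the gap was 0.736 of the range. Cdkn2a in sham replicate 4 was at 0.178 FPKM and at 0 in the other 4 sham mice, a gap of 1.0 of the range. Neither gene was called changed, and the reason for these values was not tested.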

How the results depend on the processing

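The 10 called genes kept their direction in every alternative that could be run for them and were called in all 10 fits that left out 1 mouse, in which 2979 to 4440 of all genes, 5 to 6 proliferation genes higher, 3 to 4 lower and 2 brakes higher were called. With Xist as a covariate, 2210 genes were called in place of 4042, with 1 proliferation gene lower. Restricting to a mean FPKM of at least 1 left 1 proliferation gene lower and 1 brake higher, because Cenpf, Ccnb2 and Cdkn2b lie below that level. The exact permutation test with Benjamini-Hochberg adjustment called 0 genes in every count, since its smallest adjusted p in 5 against 5 mice was 0.0647; 7069 genes had an unadjusted exact p below 0.05. The brakes called lower numbered 2 with median-ratio and 3 with upper-quartile scaling (Cdkn1b, Meis1 and, in the latter, Cdkn2c) against 0 without scaling. The mean difference of the brakes was 0.44, and became 0.21 with median-ratio scaling, 0.22 with upper-quartile scaling, 0.65 with TPM and 0.18 with a pseudocount of 1. Same-numbered mice did not deviate together (correlations -0.29 to 0.10) and none correlated best with its own number. No pairing by number was visible, but these values cannot exclude one, and the labels do not say what the numbers mean. With the numbers as a replicate block, 2724 genes were called, and Mcm2 and Cdk2 were not.

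Genes that were not called changed sign in several alternatives, and the cause was not tested. Log2 FC with median-ratio scaling was Ccne1 -0.0898, Ccne2 -0.0959, Bub1b -0.14, Kif11 -0.13, Rb1 -0.16, and with upper-quartile scaling Ccne1 -0.0783, Ccne2 -0.0836, Bub1b -0.13, Kif11 -0.12, Rb1 -0.14. With TPM it was Pcna 0.0815, Rrm1 0.0107, Ccnb1 0.0222, Aurkb 0.0872, Plk1 0.0865, Bub1 0.0704, Cdc20 0.0671, Birc5 0.10, Cenpa 0.0132, Anln 0.12, Tpx2 0.0281, Prc1 0.00780. With Xist as a covariate it was Ccnb1 0.28, Bub1 0.19, Birc5 0.28, Tpx2 0.10, Prc1 0.29, and with a pseudocount of 1 Plk1 0.00349, Kif11 -0.036. Leaving out 1 mouse gave log2 FC ranges of Ccne1 -0.00456 to 0.28, Pcna -0.19 to 0.0131, Ccna2 -0.59 to 0.14, Cdk1 -0.50 to 0.0834, Ccnb1 -0.54 to 0.27, Top2a -0.58 to 0.12, Aurkb -0.31 to 0.27, Plk1 -0.18 to 0.15, Bub1 -0.19 to 0.23, Bub1b -0.0939 to 0.18, Cdc20 -0.31 to 0.11, Birc5 -0.48 to 0.39, Cenpa -0.32 to 0.0953, Kif11 -0.27 to 0.40, Anln -0.26 to 0.22, Tpx2 -0.34 to 0.24, Prc1 -0.69 to 0.29, Rb1 -0.00620 to 0.19. Of the 20 G2 and mitosis genes 19 had a mean below 1 FPKM; what depth contributes to their spread was not tested.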
